A study of Mus musculus with 22 samples.

Results

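The genes described here are the chemokines and chemokine receptors expressed in mouse intestinal tissue, taken as every gene whose symbol starts with Ccl, Cxcl, Ccr or Cxcr followed by a digit. This rule found 62 of the 46603 rows of the deposited gene table, with 56 different symbols, and 39 of the 62 (27 ligands and 12 receptors) had enough counts to be among the 15763 genes tested. The 22 libraries came from male wild-type C57BL/6 mice that were 7 weeks old at the start and ate an irradiated diet for 7 weeks. The diet held 8% fibre by weight, which was cellulose, inulin or pectin, and its kilocalories were 45% carbohydrate, 35% fat and 20% protein. Mice of the exposed groups drank water that delivered perfluorooctanesulfonic acid (PFOS, a persistent fluorinated surfactant) at 3 µg per kg of body weight and day. The 6 groups were cellulose (Control, n = 4), cellulose with PFOS (PFOS, n = 4), inulin (Inulin, n = 3), inulin with PFOS (Inulin_PFOS, n = 3), pectin (Pectin, n = 4) and pectin with PFOS (Pectin_PFOS, n = 4). The labels call each library a biological replicate, name the tissue only as intestine, and do not say which part of the gut was taken. Libraries are named here by group and biological replicate number, which is not always the number in the title. Control 4, Pectin 4 and Pectin_PFOS 4 were titled Control_5, Pectin_5 and Pectin_PFOS_5. PFOS 3 and PFOS 4 were titled PFOS_4 and PFOS_5, and Inulin 2 and Inulin 3 were titled Inulin_4 and Inulin_5. Inulin_PFOS 2 and Inulin_PFOS 3 were titled Inulin_PFOS_3 and Inulin_PFOS_5. The RNA was from whole tissue, so a lower level through fewer cells of a type cannot be told apart from a lower level through less RNA per cell.

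Chemokines are small secreted proteins that bind seven-helix receptors coupled to inhibitory G proteins and guide moving leukocytes along their gradients. Inflammatory members draw monocytes, granulocytes and effector T cells into challenged tissue, whereas homeostatic members place lymphocytes in follicles, draining lymphatics and the mucosa. In the intestine, Ccl25 with its receptor Ccr9 recruits lymphocytes to the small bowel, Ccl28 with Ccr10 recruits antibody-secreting plasma cells, Ccl20 with Ccr6 serves the lymphoid follicles, and Ccl2 and its neighbours with Ccr2 supply the monocytes that become gut macrophages.

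The libraries held between 17613322 and 20261370 estimated counts each. The share of counts from mitochondrial genes ran from 2.85% to 14.9%, and in Pectin_PFOS (2.85% to 3.51%) it was below every Pectin (3.88% to 7.36%) and PFOS library (4.26% to 9.16%). Its part in the comparisons of Pectin_PFOS was not tested. The library Pectin_PFOS 1 had the fewest genes at 10 counts or more (12919, against 13600 or more elsewhere). Calls of reported members that change without it are given both ways. Calls of single genes that are no member, markers among them, are given with all libraries only. Summed TPM, the length-scaled abundance of a transcript in its library, of ileum markers ran from 6336 to 23490 over the libraries, and those of colon markers from 66.9 to 618. Most of each colon sum came from Car4, while Car1 and Hoxb13 had 0.35 TPM or less in every library. Markers of proximal small intestine summed to 303 to 7578 TPM. Of these, Gata4 had 15.42 TPM in PFOS 4, 19.85 in Pectin_PFOS 3, 10.47 in Pectin_PFOS 4 and 6.57 in Pectin 2. Elsewhere Gata4 had 1.36 TPM or less. The part of the gut segment in the comparisons, those of Ccl25, Ccl5 and Ccl20 among them, was not tested. Epithelial markers summed to 8433 TPM or more in every library, and markers of exocrine pancreas to 1.02 TPM or less. Adipocyte markers summed to 16.7 to 358.5 TPM over the libraries. Adipoq, 1 of them, had 0.07 to 172 TPM in Control, 8.36 to 71.8 in PFOS and 2.37 to 54 in Inulin. It had 11.4 to 26.35 TPM in Inulin_PFOS, 3.24 to 92.6 in Pectin and 0.17 to 14.6 in Pectin_PFOS. The part of adipocytes in the comparisons was not tested. Control 4 had the highest mitochondrial share (14.9%), the lowest ileum sum (6336 TPM) and the highest adipocyte sum (358.5 TPM). Results without Control 4 are given only where stated.

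The promoters of 5 members on which the comparisons below turn are shown first. Each run is the 250 bases before the annotated start, from the RefSeq sequence of build GRCm38.p6, on the plus strand, read 5′ to 3′. RefSeq entries were found for 25 of the 39 tested symbols, with no entry for, among others, Ccl11, Ccl2, Ccl21c, Ccl24, Ccl4, Ccl5, Ccl7, Ccr10, Ccr7, Cxcl11, Cxcl16, Cxcl5 and Cxcr5. Capitals mark a match to one of 3 motifs searched on both strands: the TATA box TATAAA, the NF-kappaB consensus, and GAAANNGAA, which is the core of interferon response elements. No match overlapped another in these windows. Ccl8 (chr11:82114935-82115184) and Ccl12 (chr11:82101595-82101844) are neighbouring monocyte-attracting ligands whose PFOS differences had opposite signs on inulin and on pectin.
Ccl8: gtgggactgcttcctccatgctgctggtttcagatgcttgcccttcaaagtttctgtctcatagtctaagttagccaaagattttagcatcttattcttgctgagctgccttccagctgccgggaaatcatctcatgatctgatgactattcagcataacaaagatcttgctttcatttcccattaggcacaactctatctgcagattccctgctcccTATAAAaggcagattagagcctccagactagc
Ccl12: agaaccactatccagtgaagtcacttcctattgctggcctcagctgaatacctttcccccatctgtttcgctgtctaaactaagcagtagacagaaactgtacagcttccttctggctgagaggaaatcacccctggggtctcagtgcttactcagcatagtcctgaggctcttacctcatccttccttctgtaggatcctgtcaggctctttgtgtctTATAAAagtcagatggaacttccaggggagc
Cxcl12 (chr6:117168285-117168534) was the ligand lower in both comparisons of Pectin_PFOS. Ccl28 (chr13:119623569-119623818) was higher with both fibres under PFOS, and Ccl20 (chr1:83116516-83116765) was called higher with pectin under PFOS, a call lost without Pectin_PFOS 3.
Cxcl12: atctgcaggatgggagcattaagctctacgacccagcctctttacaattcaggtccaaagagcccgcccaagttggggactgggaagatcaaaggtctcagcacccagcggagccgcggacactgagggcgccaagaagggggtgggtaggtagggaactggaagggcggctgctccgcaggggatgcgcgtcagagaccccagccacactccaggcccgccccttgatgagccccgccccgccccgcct
Ccl28: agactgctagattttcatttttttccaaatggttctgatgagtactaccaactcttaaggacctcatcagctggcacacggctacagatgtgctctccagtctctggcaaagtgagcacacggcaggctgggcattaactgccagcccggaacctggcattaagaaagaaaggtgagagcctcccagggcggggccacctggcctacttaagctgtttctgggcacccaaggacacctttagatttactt
Ccl20: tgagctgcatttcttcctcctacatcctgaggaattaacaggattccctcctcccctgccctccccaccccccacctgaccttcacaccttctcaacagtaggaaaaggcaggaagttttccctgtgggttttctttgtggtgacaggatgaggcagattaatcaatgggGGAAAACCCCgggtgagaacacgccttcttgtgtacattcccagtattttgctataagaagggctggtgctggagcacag
The TATAAA match started 32 bases before the start in Ccl8 and 31 bases before it in Ccl12. The match in Ccl20 started 80 bases before the start and was GGAAAACCCC, which fits the NF-kappaB consensus read on the other strand. The windows of Cxcl12 and Ccl28 held no match to the 3 motifs. Of 32851 mouse promoter windows of this kind, 12.4% held TATAAA, 7.25% the NF-kappaB consensus and 7.13% GAAANNGAA, and of 29 windows of members 7, 5 and 5 did. A match is a match of letters only.

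Among the homing and mucosal CC ligands, Ccl25, made by small-bowel epithelium, was the most abundant of all members at a mean of 550.2 TPM (323 to 836) over the 22 libraries. Ccl21a, which guides dendritic cells and lymphocytes into lymphatics, followed at 31.4 TPM (5.24 to 58.9), then Ccl20 at 19.6 TPM (1.5 to 115), Ccl27a at 8.19 TPM (2.63 to 17.5) and Ccl28 at 7.31 TPM (2.55 to 15.3). TPM is scaled by transcript length, so these levels can be set beside each other, and the parentheses give the lowest and highest library. Of the inflammatory CC ligands, Ccl6, a myeloid and epithelial chemokine of rodents, reached 144 TPM (80.1 to 224). Ccl5, which T cells and natural killer cells make, reached 84.9 TPM (7.92 to 260.4). The ligands of the Ccr2 monocyte receptor were far lower, with Ccl8 at 11.3 TPM (0.72 to 36), Ccl12 at 1.22 TPM (0 to 3.43), Ccl7 at 0.777 TPM (0 to 2.64) and Ccl2 at 0.668 TPM (0.07 to 1.98).

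The CXC ligands were led by Cxcl16, the ligand of Cxcr6, at 60.4 TPM (26.1 to 85.5). The stromal ligand Cxcl12 stood at 11.6 TPM (0.87 to 26.8), the epithelial and stromal ligand Cxcl14 at 11.4 TPM (1.23 to 20.6) and the follicle ligand Cxcl13 at 8.81 TPM (0.43 to 47.2). The most abundant receptors were at a few TPM: Cxcr4, the receptor of Cxcl12, had 4.2 TPM (0.46 to 18.1), Ccr1, a myeloid receptor, 2.58 TPM (0.91 to 4.64), the B cell receptor Cxcr5 2.39 TPM (0 to 13.8) and the T cell receptor Cxcr6 1.72 TPM (0.49 to 3.95). Of the neutrophil-attracting ligands only Cxcl5 passed the filter on low counts, at 0.227 TPM (0 to 0.77). Cxcl1, Cxcl2, Cxcl3, Cxcl15 and the neutrophil receptors Cxcr1 and Cxcr2 did not pass: over all 22 libraries Cxcl1 had 72 counts, Cxcl2 44, Cxcr2 5 and Cxcr1 1. Ccl3, an inflammatory ligand of Ccr1, had 100 counts in all and at most 11 in a library. Ccr3, the eosinophil receptor, had 49 and Ccr8 had 10. The other rows that were not tested were Ccl1, Ccl26, Ccl27b, Cxcl17, Ccr1l1, the only row of Ccl21b, further copies of Ccl19, Ccl21a, Ccl21c and Ccl27a, and 2 Ccl19 pseudogenes. In all 23 member rows were not tested, and 3 of those had no count in any library.

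**Figure D1:**
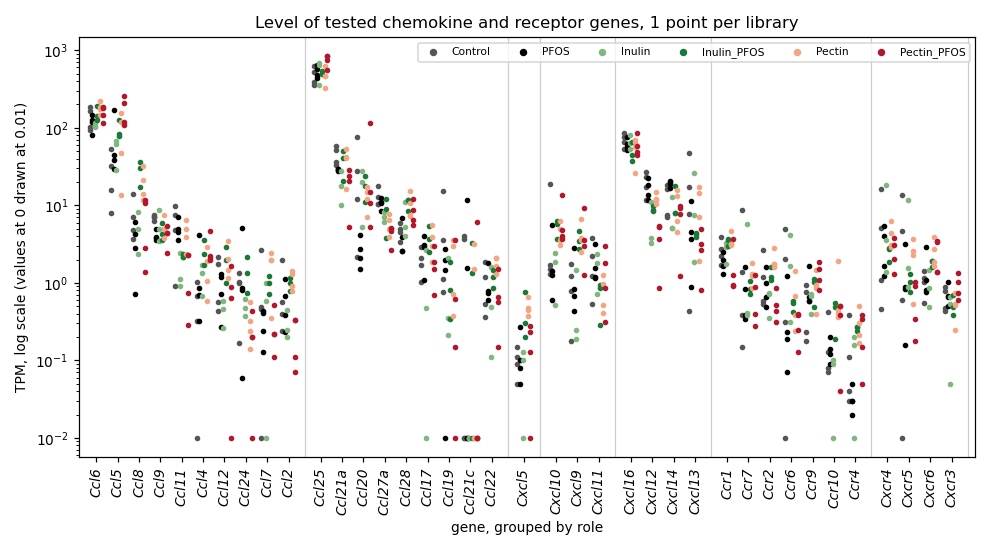
Levels of tested chemokines and receptors in TPM on a log axis, grouped by role, with 1 point for each of the 22 libraries coloured by group and zeros drawn at 0.01. Ccl25 lies above all other members, and most receptors lie below 10 TPM.

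The highest group mean was most often Pectin, for 13 of the 39 members, and the lowest most often Inulin or Pectin_PFOS, for 12 members each, followed by PFOS with 11. This order of means is a description with no test.

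For many inflammatory members the PFOS difference was positive on inulin and negative on pectin. The question here is whether the PFOS difference on pectin (Pectin_PFOS against Pectin) differed from that on inulin (Inulin_PFOS against Inulin), a difference of differences that shares no library between its arms. It was chosen for testing after the values had been seen. 12 of the 39 members (30.8%) were called lower, meaning a lower PFOS difference on pectin than on inulin, and 0 higher, at an adjusted p below 0.05 in edgeR's quasi-likelihood test. Over all genes 12.3% were called lower and 13.1% higher (25.4% in all). They included the ligands Ccl2, Ccl8, Ccl9, Ccl11, Ccl12, Ccl17, Ccl21a, Cxcl5 and Cxcl12 and the receptors Ccr2 and Ccr10. The median log2 difference over the 39 was -1.30, and -0.05 over all genes. Of the 10 inflammatory CC ligands tested, 10 had a negative value and 5 were called.

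Ccr2, the receptor of inflammatory monocytes, had 1.02, 1.78 and 2.23 CPM (counts scaled to the effective size of the library) in Inulin and 4.19, 5.13 and 3.96 in Inulin_PFOS. In Pectin it had 6.16, 5.55, 9.33 and 4.82 CPM and in Pectin_PFOS 1.12, 2.69, 1.35 and 1.41. Every Inulin_PFOS library was above every Inulin library, and every Pectin_PFOS library below every Pectin library. The log2 difference between the PFOS effects was -3.36 ± 0.79 (SE; adjusted p = 0.00864).

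Its ligand Ccl8, which also binds Ccr8 in mice, showed 0.542, 1.17 and 2.23 CPM in Inulin and 5.27, 7.95 and 10.8 in Inulin_PFOS. The Pectin libraries held 4.94, 6.03, 8.83 and 2.92 CPM and the Pectin_PFOS libraries 0.395, 2.93, 2.82 and 0.626. The inulin groups were apart, while Pectin 4 lay just below the highest Pectin_PFOS library, Pectin_PFOS 2. The difference of the PFOS effects was -4.34 ± 1.01 (adjusted p = 0.00836).

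Ccl2, the main monocyte-mobilising ligand, had 0.12, 0.223 and 0.112 CPM in Inulin and 0.736, 0.552 and 0.488 in Inulin_PFOS, against 0.555, 0.813, 0.556 and 0.664 in Pectin and 0.0659, 0.176, 0.0564 and 0.157 in Pectin_PFOS. Both pairs of groups were apart, in opposite directions. Ccl2 rested on 1 to 23 rounded counts per library, so its levels carry a large counting error. The difference of the PFOS effects was -4.35 ± 1.04 (adjusted p = 0.00926).

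Ccl12, another Ccr2 ligand, had 0.12, 0.0556 and 0.112 CPM in Inulin and 0.34, 0.828 and 0.65 in Inulin_PFOS. In Pectin it had 0.444, 1.05, 0.611 and 0.398 and in Pectin_PFOS 0, 0.234, 0.451 and 0.157, from 0 to 22 rounded counts per library overall. The inulin groups did not overlap and the pectin groups did. The difference was -4.11 ± 1.10 (adjusted p = 0.0138).

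Ccl7, which shares Ccr2 with these ligands, missed the threshold, with a difference of -3.76 ± 1.41 and an adjusted p of 0.0546. Ccl11, the eosinophil ligand eotaxin, had a difference of -2.52 ± 0.92 (adjusted p = 0.04999, at the edge of the threshold). Ccl2, Ccl7, Ccl11, Ccl12 and Ccl8 lie next to each other on the plus strand of chromosome 11, with Ccl2 starting at 82035571 and Ccl8 ending at 82116799 in the coordinates of the deposited table. As neighbours of 1 locus they are not 5 independent measurements of a condition.

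**Figure D2:**
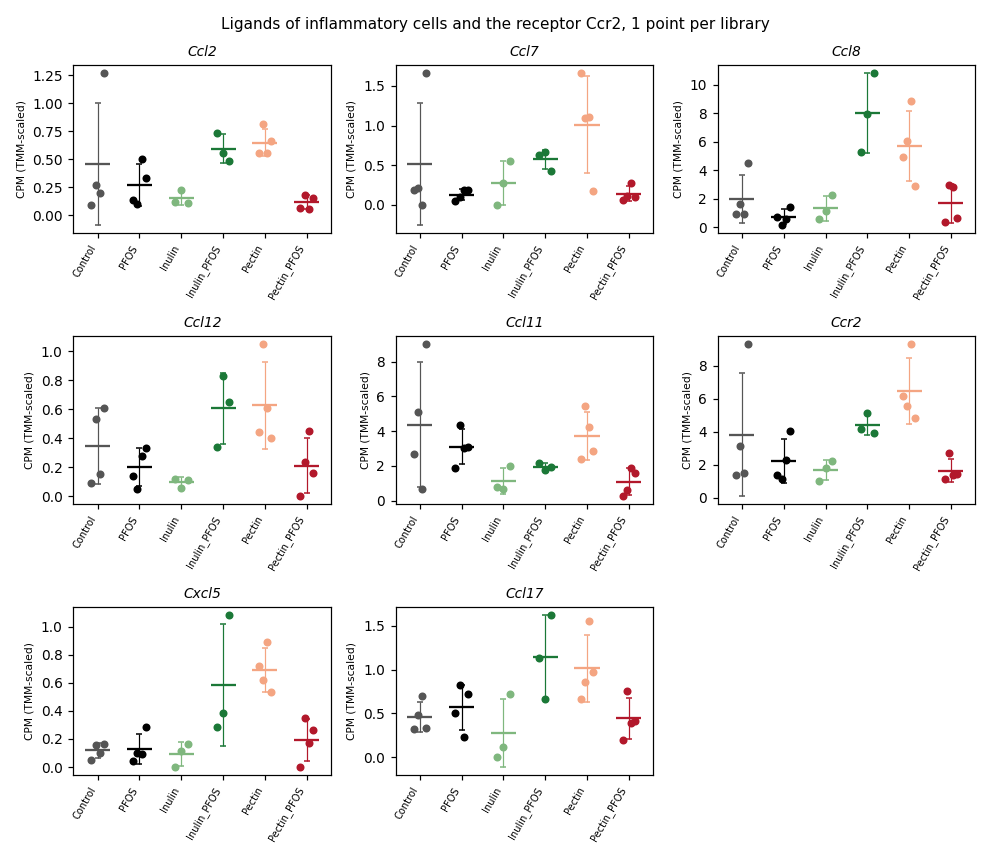
Level in CPM of Ccl2, Ccl7, Ccl8, Ccl12, Ccl11, Ccr2, Cxcl5 and Ccl17 in the 6 groups, 1 point per library with the mean and SD. For Ccl2 and Ccr2 the Inulin_PFOS points lie above the Inulin points and the Pectin_PFOS points below the Pectin points.

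Cxcl5, an epithelial ligand of the neutrophil receptor Cxcr2, had 0, 0.111 and 0.167 CPM in Inulin, 0.283, 0.387 and 1.08 in Inulin_PFOS, 0.722, 0.622, 0.889 and 0.531 in Pectin and 0, 0.351, 0.169 and 0.261 in Pectin_PFOS. Neither pair of groups overlapped, although no library had more than 20 rounded counts. The difference was -4.31 ± 1.05 (adjusted p = 0.00983).

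Ccr10, the receptor of Ccl28 and Ccl27 on plasma cells, had 0.12, 0.111 and 0 CPM in Inulin and 0.793, 0.276 and 0.867 in Inulin_PFOS. The Pectin libraries had 0.722, 0.526, 0.667 and 2.48 CPM, with Pectin 4 far above the others, and the Pectin_PFOS libraries 0.0659, 0.703, 0.733 and 0.47. The difference was -4.12 ± 1.09 (adjusted p = 0.0135). Ccr10 overlaps Cntnap1 on the other strand in the annotation.

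Ccl17, the dendritic cell ligand of Ccr4, had 0, 0.111 and 0.725 CPM in Inulin, 1.13, 0.662 and 1.62 in Inulin_PFOS, 0.666, 0.861, 1.56 and 0.973 in Pectin and 0.198, 0.761, 0.395 and 0.417 in Pectin_PFOS. Its difference was -3.17 ± 0.95 (adjusted p = 0.0221), and both pairs of groups overlapped in 1 or more libraries.

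Ccl21a had 5.24, 9.62 and 17.1 CPM in Inulin, 14.3, 30.1 and 27.6 in Inulin_PFOS, 12.4, 33.6, 26.9 and 22.6 in Pectin and 3.56, 14.3, 17.2 and 10.8 in Pectin_PFOS, with a difference of -2.23 ± 0.60 (adjusted p = 0.0143). Both pairs overlapped, and Pectin_PFOS 1 was the lowest of all.

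Cxcl12 had 4.82, 6.06 and 18.1 CPM in Inulin and 15.6, 14.6 and 17.2 in Inulin_PFOS, and Ccl9, a myeloid ligand of Ccr1, had 6.74, 8.29 and 9.81 CPM in Inulin and 7.82, 9.28 and 10.7 in Inulin_PFOS. Ccl11 had 0.783, 0.667 and 2.01 CPM in Inulin and 2.15, 1.77 and 1.95 in Inulin_PFOS. Each overlapped between the inulin groups and lay apart between the pectin groups. The difference of the PFOS effects was -2.38 ± 0.67 for Cxcl12 (adjusted p = 0.017) and -1.13 ± 0.40 for Ccl9 (adjusted p = 0.0438). The Ccl9 call was lost in 16 of 29 alternatives and that of Ccl11 in 19, with an adjusted p of 0.0219 to 0.911 and 0.022 to 0.123. The largest positive difference was that of Cxcl11, 2.30 ± 0.86, which missed the threshold (adjusted p = 0.0547).

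Markers of other cells moved with these members. Of the 10 macrophage and monocyte markers 6 were called lower in the same comparison, of 6 fibroblast markers 6, of 6 smooth muscle markers 5 and of 7 plasma cell markers 3. The summed macrophage markers ran from 137 to 334 TPM in Inulin, 223 to 431 in Inulin_PFOS, 224 to 458 in Pectin and 83.3 to 303 in Pectin_PFOS. There 83.3 was Pectin_PFOS 1, and the next library had 216. The fibroblast markers summed to 104 to 150.1, 123 to 211, 162 to 228 and 49.8 to 82.6 TPM in the same order. No gene of either list was at 0 in all libraries of a group. The neutrophil markers summed to 0.83 to 3.52, 5.06 to 9.23, 2.99 to 6.29 and 0.33 to 3.46 TPM in the same order of groups. Eosinophil markers summed to 4.38 to 6.2, 3.85 to 4.39, 2.64 to 7.9 and 2.32 to 3.21 TPM. Those of blood endothelium summed to 2.58 to 7.45, 4.35 to 5.49, 4.05 to 11.03 and 1.29 to 12.05 TPM. The part of these cells in the chemokine differences was not tested. None of the 10 T cell, 9 B cell or 7 dendritic cell markers was called.

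The 12 calls became 6 without Inulin 1 (9.08% of all genes) and 19 without Inulin 3 (29.4%). Without Pectin_PFOS 1 there were 9 (18.7%), and Ccl9 and Ccl11 were among those lost.

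The 2 PFOS contrasts behind this difference were also read singly. On inulin no member passed the test in edgeR (0 of 39, against 0.159% of all genes called, 0.0698% higher and 0.0888% lower), although 11 had an unadjusted p below 0.05, and DESeq2 called 2 and 3.12% of all genes. The members' log2 fold changes were positive for 32 and negative for 7, with a median of 0.79 against -0.01 over all genes. All 10 inflammatory CC ligands had positive values, and 13 members were higher in every Inulin_PFOS library than in any Inulin library, as were 12.2% of all genes, and 1 was lower in every library, as were 12.1%. Cxcl9, an interferon-induced ligand of Cxcr3, had 0.421, 0.556 and 3.79 CPM in Inulin and 11.8, 8.94 and 7.53 in Inulin_PFOS, a log2 difference of 2.56 ± 0.91 that was not called (adjusted p = 0.16). Ccl8 differed by 2.60 ± 0.77 (adjusted p = 0.117).

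On pectin, 6 of the 39 members (15.4%) fell with PFOS and 0 rose, where 9.43% of all genes fell and 11.4% rose (20.8% in all). In every library 9 members were lower than in any Pectin library and 0 were higher, against 13.6% and 12.0% of all genes. The 6 were the receptor Ccr2 and the ligands Ccl2, Ccl7, Ccl9, Ccl11 and Cxcl12. The median log2 fold change was -0.96 over the members and -0.06 over all genes.

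Cxcl12, which retains Cxcr4-bearing leukocytes and is made by fibroblasts and endothelium, had 23.6, 24.5, 17.9 and 18.9 CPM in Pectin and 1.71, 5.79, 9.64 and 9.34 in Pectin_PFOS. The groups did not overlap and Pectin_PFOS 1 was lowest. Cxcl12 fell by 1.67 ± 0.44 (adjusted p = 0.0148), from 21.2 ± 3.31 to 6.62 ± 3.71 CPM (mean ± SD, n = 4 each). Of 6 fibroblast markers 4 fell in the same comparison, and their sum was 183, 228, 212 and 162 TPM in Pectin and 49.8, 80.6, 82.6 and 68.2 TPM in Pectin_PFOS. Their part in the fall was not tested.

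Ccr2 fell by 1.97 ± 0.52 on the log2 scale (adjusted p = 0.0144) and Ccl2 fell by 2.43 ± 0.69 (adjusted p = 0.0201). Ccl7 had 1.67, 1.1, 1.11 and 0.177 CPM in Pectin and 0.0659, 0.117, 0.282 and 0.104 in Pectin_PFOS. Pectin 4 lay within the range of the exposed libraries, so the groups overlapped, although Ccl7 passed the test at -2.75 ± 0.95 (adjusted p = 0.045).

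Ccl11 had 2.39, 5.45, 4.22 and 2.88 CPM in Pectin and 0.264, 0.585, 1.86 and 1.62 in Pectin_PFOS, without overlap, and fell by 1.77 ± 0.60 (adjusted p = 0.0438). Ccl9 had 8.1, 13.3, 12.4 and 12 CPM in Pectin and 6.26, 4.62, 7.83 and 4.7 in Pectin_PFOS. The highest exposed library was just below the lowest Pectin library, and the log2 fold change was -0.97 ± 0.26 (adjusted p = 0.0167). The limma value on log2(TPM + 1) was -0.30 and not called (adjusted p = 0.412, the highest over 29 alternatives, 0.00475 to 0.412), and the call was also lost without Pectin 2.

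Without Pectin_PFOS 1 only Cxcl12 and Ccl9 of the 6 were called, and 8.63% of all genes. The adjusted p was then 0.0522 for Ccr2 (range over 29 alternatives 0.00186 to 0.0522), 0.0639 for Ccl2 (0.0043 to 0.0639), 0.124 for Ccl11 (0.0159 to 0.124) and 0.116 for Ccl7 (0.0162 to 0.116). Without Pectin 2 the count was also 2 (10.7% of all genes), and without Pectin_PFOS 2 it was 9 (17.5%).

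In the PFOS-exposed mice, Ccl28 and Ccr4 rose with both fibres against cellulose. Inulin_PFOS and Pectin_PFOS were each set against PFOS, so the comparisons share the 4 PFOS libraries. With inulin 3 of 39 members rose (7.69%, against 1.84% of all genes) and 0 fell (against 0.799%), with 2.64% of genes called in all. Without overlap 12 members were higher and 2 lower, against 12.4% and 14.1% of genes. With pectin 4 rose (10.3%, against 7.70%) and 3 fell (7.69%, against 8.33%), with 16.0% of genes called in all. The counts with pectin were so near those over all genes. Library totals alone as the scaling gave 3 and 4, with 24.3% of all genes called. Without overlap 4 were higher and 4 lower, against 12.0% and 14.5%.

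Ccl28, the mucosal epithelial ligand of Ccr10, had 14.7, 6.46, 9.62 and 7.14 CPM in PFOS, 44.8, 28.5 and 42.1 in Inulin_PFOS and 24.6, 40.5, 18.9 and 25.7 in Pectin_PFOS. All libraries of both fibre groups were above all PFOS libraries. It rose by 2.02 ± 0.37 with inulin (adjusted p = 0.00715) and by 1.53 ± 0.35 with pectin (adjusted p = 0.00779). These calls were kept in all 29 alternatives.

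Of 7 plasma cell markers 2 rose and 0 fell in each comparison. These were Igha and Igkc, immunoglobulin constant regions: Igha rose by 2.27 ± 0.57 and 1.93 ± 0.54, Igkc by 2.30 ± 0.59 and 2.01 ± 0.56. The summed plasma cell markers ran from 722 to 1166 TPM in PFOS, 2306 to 3422 in Inulin_PFOS and 568 to 3246 in Pectin_PFOS, where Pectin_PFOS 1 was lowest and the next library had 2959. The summed colon markers also lay apart, at 94 to 176 TPM in PFOS, 328 to 542 in Inulin_PFOS and 389 to 618 in Pectin_PFOS. Most of each sum was Car4, at 55.2 to 136, 307 to 507.5 and 342 to 578 TPM in the same order. In each comparison 1 of the 3 tested colon markers was called higher. The part of plasma cells and of the gut segment in the Ccl28 differences was not tested.

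Ccr4, a receptor of Ccl17 and Ccl22 on T helper and regulatory cells, had 0.0462, 0.0482, 0.0456 and 0.0958 CPM in PFOS, 0.736, 0.662 and 0.65 in Inulin_PFOS and 0.132, 0.937, 0.845 and 0.313 in Pectin_PFOS. By CPM both fibre groups were above PFOS in every library. The rounded counts were 1, 1, 1 and 2 in PFOS, 13, 12 and 12 in Inulin_PFOS and 2, 16, 15 and 6 in Pectin_PFOS. The fold changes thus rest on very few reads in PFOS. Ccr4 rose by 3.40 ± 0.89 (adjusted p = 0.0441) and 3.12 ± 0.87 (adjusted p = 0.0209). The inulin call was lost in 12 of 29 alternatives, among them leaving out any PFOS or Inulin_PFOS library (adjusted p over the alternatives 0.00522 to 0.128). The pectin call was lost in 5, among them without PFOS 2, PFOS 3, Pectin_PFOS 2 or Pectin_PFOS 3 (0.00666 to 0.0837). In Control, Ccr4 had 0.186, 0.0531, 0.849 and 0.111 CPM, with Control 3 far above the others.

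Ccl8 had 0.739, 0.144, 0.593 and 1.44 CPM in PFOS and rose with inulin by 3.45 ± 0.72 (adjusted p = 0.0152). With pectin its log2 difference was 1.21 ± 0.69 (adjusted p = 0.229), with overlapping groups.

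Ccl20, the follicle-associated ligand of Ccr6, had 0.785, 0.626, 1.14 and 1.97 CPM in PFOS and 3.1, 8.2, 63.1 and 5.11 in Pectin_PFOS. Every Pectin_PFOS library was above every PFOS library, and Pectin_PFOS 3 was far above the rest of the group. Ccl20 rose by 4.13 ± 1.07 (adjusted p = 0.0153). Without Pectin_PFOS 3 the value was 2.27 and the adjusted p 0.0912, the highest in the range over 29 alternatives (0.000346 to 0.0912). In Inulin_PFOS it had 14.9, 9.77 and 6.66 CPM, also above PFOS, with a difference of 3.21 ± 1.08 that was not called (adjusted p = 0.105).

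Ccl25 had 329, 259, 287 and 376 CPM in PFOS and 733, 426, 658 and 507 in Pectin_PFOS, without overlap. In TPM the groups overlapped, at 442 to 645 in PFOS and 554 to 836 in Pectin_PFOS. Ccl25 rose by 0.89 ± 0.22 (adjusted p = 0.0111). The call was lost with limma on log2(TPM + 1). With library totals alone as the scaling it was 0.494 and not called (adjusted p = 0.12, range over 29 alternatives 0.000755 to 0.158).

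The members that fell with pectin under PFOS were Cxcl12, Ccl24 and Ccl27a. Cxcl12 had 17.6, 17.7, 30.2 and 26.8 CPM in PFOS and fell by 1.80 ± 0.44 (adjusted p = 0.0118), without overlap. The summed fibroblast markers lay apart too, at 212 to 302 TPM in PFOS and 49.8 to 82.6 in Pectin_PFOS, and their part in the fall was not tested. Ccl24, an eosinophil ligand, fell by 2.74 ± 0.90 (adjusted p = 0.0439) from 1.94, 0.386, 0.0456 and 0.527 CPM in PFOS to 0.264, 0.117, 0 and 0.0522 in Pectin_PFOS, with overlapping groups. PFOS 1 was highest, and without it the value was -1.54 (adjusted p = 0.253, range over 29 alternatives 0.0154 to 0.253). The Ccl24 call was lost in 13 of the 29. Ccl27a, an epithelial ligand of Ccr10 that has near-identical copies and overlaps Il11ra1, had 2.03, 1.59, 1.96 and 2.59 CPM in PFOS and 1.25, 0.644, 1.24 and 1.3 in Pectin_PFOS. The groups did not overlap, and it fell by 0.88 ± 0.29 (adjusted p = 0.042). Without Pectin_PFOS 1 the adjusted p of Ccl27a was 0.0673 (range over 29 alternatives 0.00484 to 0.127).

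**Figure D3:**
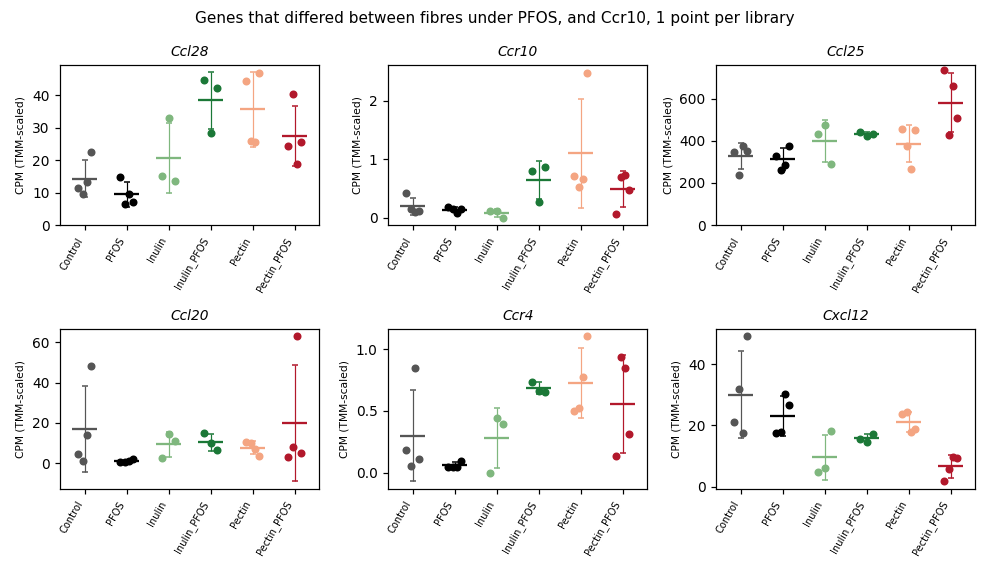
Level in CPM of Ccl28, Ccr10, Ccl25, Ccl20, Ccr4 and Cxcl12 in the 6 groups, 1 point per library with the mean and SD. Ccl28 lies above all PFOS libraries in Inulin_PFOS and Pectin_PFOS.

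Without PFOS, pectin against cellulose called 1 member higher and 0 lower (2.56% higher, against 1.03% of all genes, where 0.958% were lower and 1.99% were called in all). The member was Ccl28, with 11.6, 9.72, 13.3 and 22.5 CPM in Control and 44.5, 25.9, 25.6 and 46.8 in Pectin. The groups did not overlap. It rose by 1.32 ± 0.34 (adjusted p = 0.0488), but the call was lost in 19 of 29 alternatives, with an adjusted p of 0.00845 to 0.119. Igha rose by 3.51 ± 0.58 and Igkc by 2.69 ± 0.57 in the same comparison, the 2 called of 7 plasma cell markers. The summed colon markers were 66.9 to 197 TPM in Control and 180.1 to 502 in Pectin, with overlap. Most of each sum was Car4, at 39.2 to 179.5 TPM in Control and 123 to 451 in Pectin. The part of plasma cells and of the gut segment was not tested. This comparison shares the Pectin libraries with that of Pectin_PFOS against Pectin.

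Ccr10 and Cxcl5 were also higher in every Pectin library than in any Control library, with differences of 2.43 ± 0.66 (adjusted p = 0.0574) and 2.50 ± 0.68 (adjusted p = 0.0574). Cxcl9 had 1.4, 1.33, 0.4 and 4.98 CPM in Control and 11.2, 9.66, 17.9 and 5.88 in Pectin, without overlap, and a difference of 2.47 ± 0.77 (adjusted p = 0.0971). In all 5 members were higher and 1 was lower without overlap, against 3.95% and 4.29% of all genes. Without Pectin_PFOS 1, which is in neither group, Ccr10 and Cxcl5 passed as well, with adjusted p of 0.0387 (range over 29 alternatives 0.0217 to 0.161) and 0.0370 (range 0.0227 to 0.129).

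Inulin against cellulose called 0 of 39 members and 0% of all genes in edgeR, with 6 members at an unadjusted p below 0.05, and DESeq2 called 1 and 4.80% of all genes. The smallest p was that of Cxcl12, with 21.1, 31.9, 17.6 and 49.2 CPM in Control and 4.82, 6.06 and 18.1 in Inulin, a difference of -1.63 ± 0.48 (adjusted p = 0.0943). Inulin 3 lay within the Control range. Without Pectin_PFOS 1, which is in neither group, Cxcl12 passed, with an adjusted p of 0.045 (range over 29 alternatives 0.0206 to 0.403). Only Ccl21a and Ccl27a were lower in every Inulin library than in any Control library and 0 members were higher, against 6.12% and 3.70% of all genes.

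On cellulose, PFOS against Control called no member and no gene (0%) in edgeR, with 6 members at an unadjusted p below 0.05, and DESeq2 and limma called no member either. Of the 39 members 29 had a negative value and 10 a positive one, with a median of -0.53 against -0.04 over all genes. Ccl21a had 22, 30.4, 19.7 and 23 CPM in Control and 11.7, 12.6, 13.6 and 14.8 in PFOS. It was the only member whose PFOS libraries all lay below the Control libraries (against 1.03% of all genes), and 0 members were higher without overlap (against 1.14%). The difference was -0.85 ± 0.39 (adjusted p = 0.822). Ccl21a has near-identical copies, so its counts may include reads of those.

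Ccl20 had 4.74, 1.01, 13.9 and 48.2 CPM in Control, where Control 4 was highest, and its difference with PFOS, the member with the smallest p, was -3.90 ± 1.06 (adjusted p = 0.822). The averaged PFOS effect over the 3 fibres called no member in edgeR (against 0.159% of genes, 0.108% higher and 0.0508% lower), with 9 at an unadjusted p below 0.05. The smallest p was that of Ccl9, at -0.54 ± 0.16 (adjusted p = 0.172). Neither interaction with cellulose as the reference called a member or a gene (0%) in edgeR. At an unadjusted p below 0.05 there were 14 members for inulin and 3 for pectin, and DESeq2 called 2 and 1, against 3.60% and 0.317% of all genes. The smallest p belonged to Ccl8 for inulin, at 4.02 ± 1.03 (adjusted p = 0.0984), and to Ccl20 for pectin, at 5.26 ± 1.40 (adjusted p = 0.266).

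The members of the lymphoid follicle differed widely between mice of the same group. Cxcl13, which draws B cells into follicles, had 10.7, 0.319, 36.9 and 7.75 CPM in Control, 0.508, 2.99, 2.46 and 8.48 in PFOS and 1.39, 5.78 and 23.7 in Inulin. Control 3 and Inulin 3 were far above their groups, and Control 2 was lowest. In Inulin_PFOS it had 4.3, 3.42 and 4.23 CPM, in Pectin 15.8, 15.4, 6.56 and 1.55 and in Pectin_PFOS 0.79, 2.28, 2.82 and 3.81. Its receptor Cxcr5 had 7.3, 0, 27.8 and 1.55 CPM in Control, 0.231, 1.49, 1.41 and 6.09 in PFOS and 1.75, 3.17 and 27.1 in Inulin. The same libraries, Control 3 and Inulin 3, were highest.

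Ccr7, the lymph node homing receptor, had 1.63, 0.212, 12.7 and 0.72 CPM in Control and 0.542, 0.612 and 9.93 in Inulin, again with Control 3 and Inulin 3 highest. Ccr6, the Ccl20 receptor on B cells and innate lymphoid cells, had 1.63, 0, 4.84 and 0.332 CPM in Control and 0.361, 1.67 and 4.79 in Inulin. The 9 B cell markers summed to 149, 3.78, 460.2 and 23.5 TPM in Control and 24.5, 50.3 and 313 TPM in Inulin, highest in the same libraries. The part of B cells in these levels was not tested.

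The averaged PFOS effect was -2.03 ± 0.70 for Cxcr5, -1.77 ± 0.61 for Cxcl13, -1.75 ± 0.63 for Ccr6 and -1.39 ± 0.59 for Ccr7. None was called (adjusted p from 0.214 for Cxcl13 to 0.28 for Ccr7).

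**Figure D4:**
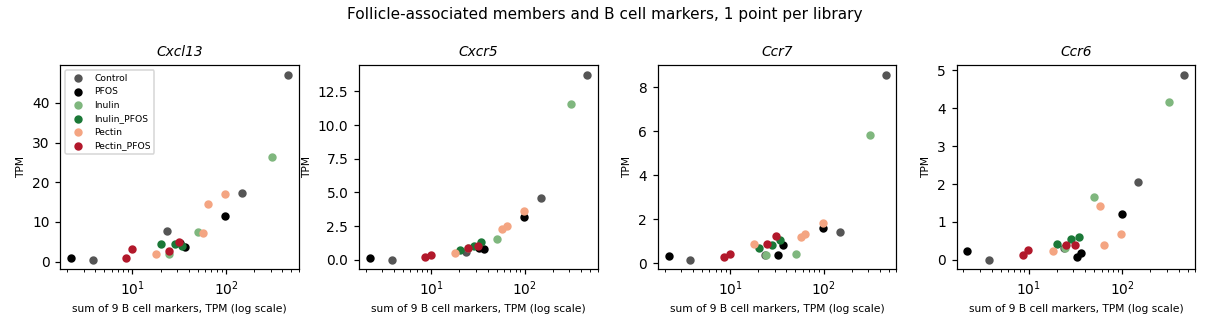
TPM of Cxcl13, Cxcr5, Ccr7 and Ccr6 against the summed TPM of 9 B cell markers on a log axis, 1 point per library coloured by group. Control 3 and Inulin 3 lie at the upper right, and the groups are mixed along the cloud.

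The interferon-induced ligands of Cxcr3, which mark type 1 responses, were not called in any comparison by edgeR with all libraries. DESeq2 called Cxcl9 higher in Pectin against Control (adjusted p over 29 alternatives 0.0146 to 0.193), Inulin_PFOS against Inulin (0.049 to 0.532) and Pectin_PFOS against PFOS (0.0199 to 0.312). In the difference between pectin and inulin it called Cxcl9 lower (0.0109 to 0.15) and Cxcl11 higher (0.0239 to 0.189). Cxcl9 was also called by edgeR without Control 4 in Pectin against Control, and without PFOS 4 in both comparisons of fibre under PFOS. Cxcl10 had 0.977, 0.478, 0.999 and 18.5 CPM in Control, where Control 4 was far above the rest of the group, 0.323, 0.771, 0.912 and 3.88 in PFOS and 0.421, 1.33 and 1.56 in Inulin. It had 5.44, 5.25 and 3.36 CPM in Inulin_PFOS, 5.11, 2.63, 4.83 and 2.57 in Pectin and 3.42, 3.92, 11.2 and 2.92 in Pectin_PFOS. The inulin groups did not overlap, but the difference of 2.07 ± 1.08 was not called (adjusted p = 0.304). Cxcl11 went the other way with PFOS on inulin, at 4.09, 3.95 and 2.45 CPM in Inulin and 1.59, 1.71 and 1.08 in Inulin_PFOS, a difference of -1.26 ± 0.66 (adjusted p = 0.301). Cxcl11 is annotated as a polymorphic pseudogene, and Cxcl10 and Cxcl11 both overlap Art3 on the other strand. Their receptor Cxcr3 had 0.444, 0.765, 1.11 and 0.708 CPM in Pectin and 0.988, 1.46, 1.92 and 0.939 in Pectin_PFOS, with overlapping groups.

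Members of intraepithelial and effector T cells had positive averaged PFOS effects that did not pass the test. Ccl5 had 6.65, 1.91, 14 and 5.26 CPM in Control, 8.45, 6.41, 8.71 and 41.9 in PFOS, 6.99, 17 and 17.9 in Inulin and 26.3, 35.6 and 27.2 in Inulin_PFOS. In Pectin it had 17.5, 35.6, 46 and 3.63 and in Pectin_PFOS 33.5, 71.1, 58.9 and 29.3. PFOS 4 and Pectin_PFOS 2 were the highest of their groups, and the averaged effect was 1.07 ± 0.41 (adjusted p = 0.257). Ccl4, an inflammatory ligand of T cells and macrophages, had an averaged effect of 1.03 ± 0.45 (adjusted p = 0.289). Ccr9, the gut-homing receptor, had 1.02, 1.21, 1.19 and 3.69 CPM in PFOS and 2.31, 4.74, 3.83 and 2.61 in Pectin_PFOS, and its averaged effect was 0.57 ± 0.29 (adjusted p = 0.359). Ccr9 overlaps another gene on the same strand in the annotation, so its counts are uncertain. Cxcr6, a receptor of resident T cells, had 1.26, 0.744, 2 and 1.88 CPM in Control and 3.66, 4.45, 6.56 and 2.39 in Pectin, without overlap, and a difference of 1.53 ± 0.49 (adjusted p = 0.104). Its ligand Cxcl16 ran from 75.3 ± 15.8 CPM in PFOS to 108 ± 37.5 in Pectin_PFOS (mean ± SD, n = 4 each), and neither was called in any comparison by edgeR with all libraries. DESeq2 called Cxcr6 in Pectin against Control, as did edgeR without PFOS 4 (adjusted p over 29 alternatives 0.0365 to 0.225), which also called it in Pectin_PFOS against PFOS (0.0125 to 0.249).

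Other abundant members were also not called by edgeR with all libraries. Ccl6 had 199, 212, 144 and 157 CPM in Pectin and 111, 125, 139 and 124 in Pectin_PFOS, all lower in the exposed mice, with a difference of -0.51 ± 0.29 (adjusted p = 0.21). DESeq2 called Ccl6 lower in the difference between pectin and inulin (adjusted p over 29 alternatives 0.0131 to 0.166). Ccr1 had 9.38, 8.04, 12.1 and 7.12 CPM in Pectin and 2.57, 8.96, 3.21 and 2.04 in Pectin_PFOS, a difference of -1.12 ± 0.42 (adjusted p = 0.0623), which DESeq2 and limma both called (range over 29 alternatives 0.00801 to 0.172). Cxcl14 had 20.3, 22.8, 21.7 and 21.6 CPM in PFOS and 2.11, 11.5, 15.2 and 12.4 in Pectin_PFOS, without overlap, and a difference of -1.06 ± 0.48 (adjusted p = 0.133), which limma called (range 0.0192 to 0.287). Pectin_PFOS 1 was lowest for Ccl6 and Cxcl14. Cxcr4 had 5.35, 0.584, 19.8 and 1.88 CPM in Control and 1.2, 4.14, 1.87 and 5.75 in PFOS, with Control 3 highest, as for the follicle genes.

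Genes of the same system under other names were counted beside the members. Of 13 tested chemokine-related genes, Pectin_PFOS against Pectin called 2 higher and 5 lower, where 11.4% of all genes were higher and 9.43% lower. The counts of these and the following lists are read against the shares of all genes in the same comparison. Cx3cl1, the membrane-bound ligand fractalkine, rose by 1.39 ± 0.29 (adjusted p = 0.00557), and Dpp4, a protease that trims chemokines, by 1.05 ± 0.25 (adjusted p = 0.00935). Rarres2, the ligand chemerin, fell by 1.15 ± 0.29 (adjusted p = 0.0125), and Pf4, Cmklr1 and the scavenger receptors Ackr3 and Ackr4 also fell. Pectin_PFOS against PFOS called 2 higher (Cx3cl1 and Dpp4) and 2 lower (Rarres2 and Ackr3), where 7.70% and 8.33% of all genes were.

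Of 18 tested genes of receptor signalling, Pectin_PFOS against Pectin called 4 higher and 2 lower, the latter near the share over all genes. Plcb3, a phospholipase downstream of G proteins, rose by 0.90 ± 0.17, and Gnb1, Elmo1 and Arrb1 rose too. Rgs1, which damps chemokine receptor signals in lymphocytes, fell by 1.59 ± 0.43, and Gng2 fell. Of 14 tested cytokines and transcriptional inducers, the same comparison called 4 higher, the NF-kappaB genes Nfkb1, Nfkb2 and Relb and the inhibitor Tnfaip3, with Nfkb2 at 1.09 ± 0.17. Inulin_PFOS against PFOS called 2 higher (against 1.84% of all genes), among them Irf1, a factor of interferon signalling, at 1.30 ± 0.31. Pectin_PFOS against PFOS called 7 higher (against 7.70%), among them Irf1 at 1.21 ± 0.30, and 1 lower (against 8.33%), Il1a. Pectin against Control called 1 higher (against 1.03%), Il1b at 2.52 ± 0.57.

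Some members could not be counted apart. Ccl21a, Ccl21c, Ccl27a and Ccl19 have near-identical copies in the mouse genome, and Ccl21c was at 0 in 13 of the 22 libraries while reaching 4.62 CPM in PFOS 1, so no fold change is given for it. Of the tested members 11 overlap another annotated gene, 1 of them on the same strand. By position, 12 tested members lie on chromosome 11, 7 on 9, 6 on 5 and 3 on 4.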

How the data were processed

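Total RNA of 22 intestinal samples was sequenced on a DNBSEQ platform from stranded libraries, per the labels' protocols. Reads were handled with HISAT and Bowtie2 on build GRCm39, per the submitters' processing notes. The counting tool is not given in the sources used here. The authors deposited expected counts (estimated, not whole) and TPM per gene. The start and end of 50 of the 62 members in the deposited table equal those of an annotation of build GRCm38, so the build of the coordinates is uncertain.

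Each of the deposited estimated counts was rounded, and the whole numbers went into edgeR 4.0.16 in R 4.3.3: TMM scaling, filterByExpr, a robust quasi-likelihood fit of the 6 group means on all 22 libraries, and Benjamini-Hochberg adjustment over 15763 genes, with calls at an adjusted p below 0.05. Values in CPM use TMM-scaled library sizes, and the deposited TPM compare levels between genes. The SE of a log2 fold change is its size divided by the square root of F. The fit was tested on simulated data. Alternatives were RLE size factors, library totals, DESeq2 1.42.0, no filter, only the groups compared, limma 3.58.1 on log2(TPM + 1), a replicate block, and each library left out.

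Tested members were described where called in any comparison or among the most abundant of each role. Ccl4, Ccr6 and Ccr9 met neither rule and are also described. Members and lists were chosen with earlier results of these data known. Groups came from the labels. Estimates for a library rest on 17613322 to 20261370 counts, and low members on few reads. Each p-value sets a difference against a spread between libraries that was estimated from all 6 groups together and drawn towards that of other genes. Some genes of the table are not reported here.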

Additional observations from a re-analysis of the deposited data

Results flagged for a closer look

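Single libraries were flagged by their gap to the nearest library for 7 of the 76 groups of 4 examined over 19 members. The cutoff flags about 1 in 20 groups of normally distributed values. CPM from few counts need not be so distributed, so 1 in 20 is no exact reference here. Among receptors, Ccr10 reached 2.478 CPM in Pectin 4 and Ccr4 0.8489 CPM in Control 3. Ccr4 was also flagged at 0.09584 CPM in PFOS 4, but that was 2 rounded counts against 1 in each other PFOS library. Among ligands, Ccl20 reached 63.13 CPM in Pectin_PFOS 3, and Ccl7 and Ccl2, the neighbouring monocyte ligands, reached 1.661 and 1.273 CPM in Control 4. Ccl27a was low in Pectin_PFOS 2, at 0.6439 CPM.

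The PFOS difference on pectin differed from that on inulin, by the test of the difference itself, for 12 members, of which those reported follow. Among monocyte-attracting ligands the log2 difference was -4.34 for Ccl8, -4.35 for Ccl2 and -4.11 for Ccl12, and among other myeloid ligands it was -1.13 for Ccl9 and -2.52 for Ccl11. The receptors were at -3.36 for Ccr2 and -4.12 for Ccr10. Cxcl5 was at -4.31, Ccl17 at -3.17, Cxcl12 at -2.38 and Ccl21a at -2.23. This test was chosen after the values had been seen, and the part of macrophage and fibroblast markers, which moved with these members, was not tested.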

How the results depend on the processing

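Of the values for single members under an alternative, 3170 kept their direction and their side of the threshold, 148 lost the call, 123 gained it and 1 changed direction. That 1 was Cxcl10 in Inulin against Control, 0.43 without Control 4 and -2.22 with all libraries (the other libraries left out took it down to -2.55). With DESeq2 the count of members called was 1 for Inulin against Control (4.80% of all genes) and 6 for Pectin against Control (5.38%). It was 2 for Inulin_PFOS against Inulin (3.12%), 11 for Pectin_PFOS against Pectin (25.7%) and 5 for Inulin_PFOS against PFOS (6.98%). For the interactions with inulin and pectin it was 2 (3.60%) and 1 (0.317%). The 1 member of Pectin against Control became 0 with RLE size factors, library totals, no filter, only the groups compared, or limma. These alternatives called 0.298% to 1.67% of all genes. Library totals alone gave 10 members for Pectin_PFOS against Pectin (18.8% of all genes). They shifted the log2 median over all genes tested, to -0.41 at the most (Pectin_PFOS against PFOS). Fitting only the groups compared gave 10 members for Inulin_PFOS against PFOS (10.1% of all genes). Leaving out each library in turn gave 0 to 1 members for Inulin against Control, for Inulin_PFOS against Inulin and for the interaction with inulin. Where 1 was called, the share of all genes was 0.672% or 1.74%, 0.844% and 4.79% in that order. For Pectin against Control the count was 0 to 4 (4 without Control 4, with 3.36% of all genes). For Pectin_PFOS against Pectin it was 2 to 9, with 8.63% or 10.7% of all genes at 2 and 17.5% at 9. For Inulin_PFOS against PFOS it was 1 to 4, with 2.69% of all genes at 4. It was 1 without PFOS 2, PFOS 3 or Inulin_PFOS 3, with 0.476% to 0.888% of all genes. For Pectin_PFOS against PFOS it was 3 to 10 (3 without Pectin_PFOS 3, with 11.9%, and 10 without PFOS 4, with 13.2%). For the difference between pectin and inulin it was 6 to 19, with 9.08% of all genes at 6 and 29.4% at 19. The causes were not tested. A replicate block raised the count of Pectin_PFOS against Pectin to 11 (24.5% of all genes). Over 25 pairs of libraries with the same biological replicate number the correlation ran from -0.261 to 0.304 and exceeded 0.1 in 6. Pairs by the number in the title, which differs for some libraries, were not examined. The check therefore cannot exclude a pairing by that number. The labels name none, and no pairing was assumed. Members such as Ccl2, Ccl12 and Cxcl5 rest on at most 23 counts in a library, which limits their precision.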
